A study of Mus musculus with 6 samples.

Results

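The 10 genes described here encode subunits of the Polycomb complexes: Ezh1, Ezh2, Eed and Suz12 of Polycomb repressive complex 2 (PRC2), Bmi1, Ring1, Rnf2, Cbx2 and Cbx7 of Polycomb repressive complex 1 (PRC1), and Asxl1 of the Polycomb deubiquitinase complex (PR-DUB). They were chosen by name, with earlier results of these data known. Each is represented by the probe set with the highest mean among those annotated to its symbol alone. Each gene had 1 such probe set, so no choice between probe sets arose. All 10 lay above the filter on low values and are among the 15526 tested genes of 22180 named genes.

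Expression was measured in c-Kit+ cells sorted from the spleen of mice with end-stage leukemia, on 1 Affymetrix mouse array per sample. One set of 3 samples came from Chd7f/f, Mx1-Cre, Cbfb+/56M mice, called Chd7f/f here, in which both alleles of the chromatin remodeller gene Chd7 are floxed. The other 3 came from Mx1-Cre, Cbfb+/56M mice, called control here. Both genotypes carry Cbfb+/56M, a conditional Cbfb-MYH11 allele that models the inv(16) fusion of acute myeloid leukemia, and Mx1-Cre, a recombinase whose promoter answers interferon and is active in many cell types. All mice received pIpC, which induces the recombinase, and the mutagen ENU, so each leukemia can carry further mutations of its own. The comparison asks what floxed Chd7 changes in these leukemias.

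Polycomb complexes keep developmental genes silent. PRC2 methylates histone H3 at lysine 27 through Ezh2 or its paralog Ezh1, with Suz12 and Eed as the scaffold and the reader of the finished mark. PRC1 adds ubiquitin to histone H2A through Ring1 or Rnf2, and its Cbx subunits bind the methylated H3 tail, while PR-DUB takes the ubiquitin off again. In blood, Ezh2 is known as the enzyme of dividing progenitors and Ezh1 as that of resting cells, Bmi1 is needed for stem cell self-renewal, and Asxl1 and Ezh2 are mutated in human myeloid neoplasms.

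All levels are log2 values from RMA, and differences are Chd7f/f minus control. A level depends on the probes of a gene, so levels of different genes were not compared; where genes are set side by side, each is given as its deviation from its own mean over the 6 arrays. The labels call the 3 samples of a genotype independent but do not say whether each is a separate mouse; the p-values therefore speak of the spread between these samples, and precision is limited by how few arrays there are.

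Some arrays stood apart. Chd7f/f replicate 1 had a proliferation score of -1.40, against 0.45 and 0.29 in Chd7f/f replicates 2 and 3 and 0.47, -0.15 and 0.34 in control replicates 1 to 3; the score is the mean deviation of 89 tested genes of DNA replication and mitosis. Control replicate 2 had Xist at 10.08, where the other 5 arrays lay between 3.30 and 3.88. The Y-linked gene Eif2s3y ran the opposite way, with 4.43 for that array and no value under 8.72 elsewhere. A part of the sex of the mice in the genotype differences was not tested. Kit, whose protein was used for sorting, was at 12.48, 11.69 and 11.91 in Chd7f/f and 11.72, 12.12 and 11.68 in controls. The mean deviation of 6 sorted progenitor markers, Kit and Cd34 among them, was 0.72, -0.32 and 0.0087 in Chd7f/f and -0.47, 0.072 and -0.0085 in controls. Monocyte and neutrophil markers were highest in Chd7f/f replicate 3, at 0.93 and 0.94, while T cell, B cell, NK cell, mast cell and megakaryocyte lists lay between -0.71 and 0.59 on all arrays. Chd7 was at 5.48, 6.498 and 5.91 in Chd7f/f and 6.17, 7.54 and 5.32 in controls (limma, difference -0.38, SE 0.58, adjusted p = 0.9998). The genotypes overlapped in Chd7, and since where its probes lie relative to the floxed part is not stated, this level does not check the deletion.

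None of the 10 Polycomb genes differed between the genotypes beyond the spread between samples. All 10 had an adjusted p of 0.9998 (limma, Benjamini-Hochberg over all tested genes), and none had an unadjusted p under 0.05, where 1.84% of all tested genes did and 0.0% passed after adjustment. Of the 10 differences 6 were above and 4 below 0, with a median of 0.012, beside -0.027 over all tested genes, of which 43.7% were above 0. With 1 array left out the median ran from -0.060 to 0.11, so its sign turned, and the split ran from 8 above and 2 below without control replicate 1 to 2 above and 8 below without Chd7f/f replicate 1. Cbx7 had the largest difference, -0.43, and 9.17% of tested genes had a larger one in either direction. With 3 samples on each side, exact permutation (two-sided) reaches no p lower than 0.1, so no single gene could pass by it.

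**Figure D1:**
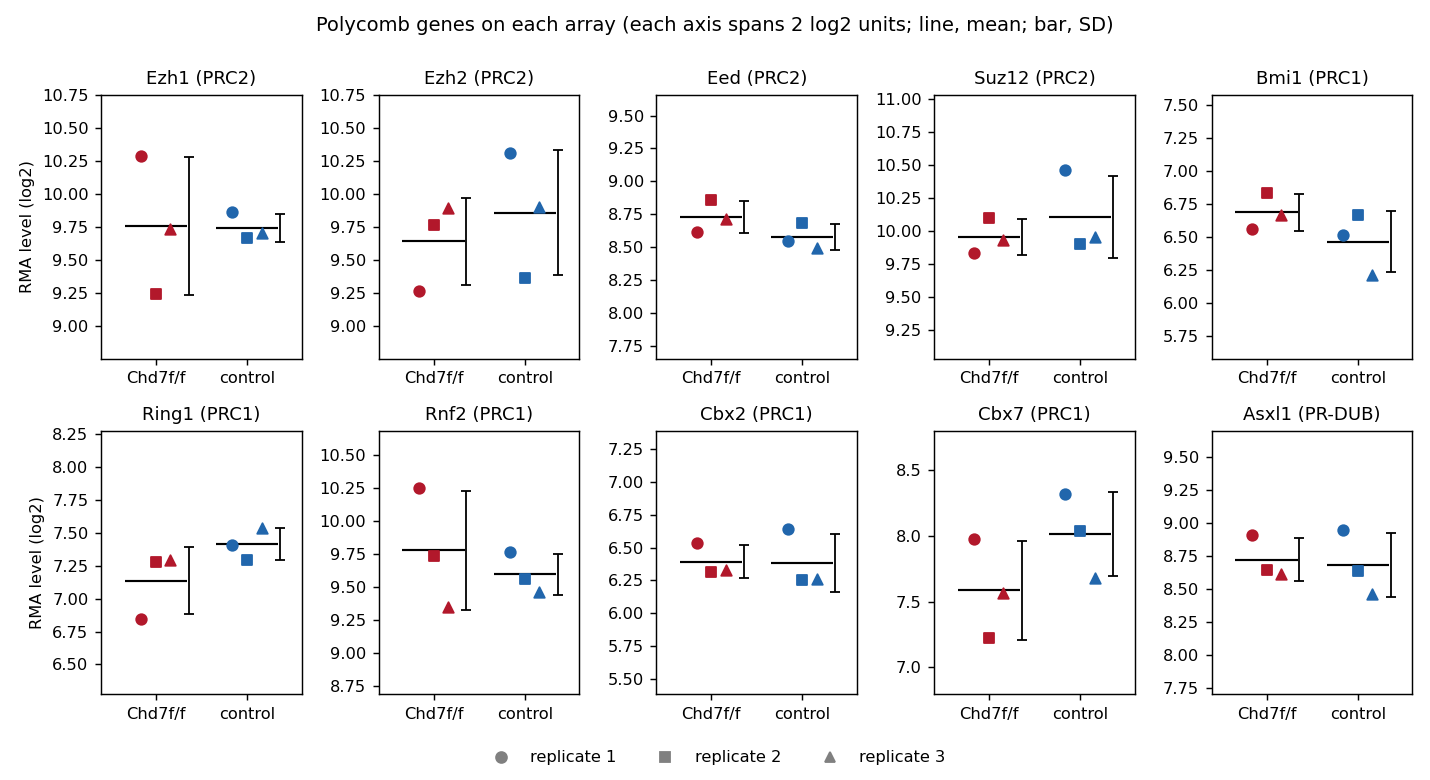
RMA levels (log2) of the 10 Polycomb genes in 3 Chd7f/f and 3 control samples; symbols mark the replicate number, lines the mean and bars the SD of a genotype, and every axis spans 2 log2 units. Ezh2, Ezh1 and Cbx7 each spread over more than 1 log2 unit across the arrays, and the genotypes overlap in every panel except that of Ring1, where they are 0.0030 apart.

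Within PRC2 the catalytic subunits varied most. Ezh2, the main H3K27 methyltransferase of dividing cells, was at 9.27, 9.77 and 9.90 in Chd7f/f replicates 1, 2 and 3, against 10.31, 9.36 and 9.90 in control replicates 1, 2 and 3. The lowest value belonged to a Chd7f/f sample and the highest to a control sample, but control replicate 2 was nearly as low, and the genotypes overlapped. The difference was -0.22 (SE 0.29, 95% interval -0.91 to 0.48), so the interval includes changes of either sign. Leaving out Chd7f/f replicate 1, the lowest array, gave -0.029, leaving out control replicate 1, the highest, gave 0.011, and leaving out control replicate 2 gave -0.46.

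Ezh1, the paralog that can replace Ezh2 in the complex, was at 10.29, 9.24 and 9.74 in Chd7f/f and 9.86, 9.66 and 9.70 in controls. The 3 controls lay close together, while Chd7f/f replicate 1 held the highest and Chd7f/f replicate 2 the lowest level of all arrays. The SD was 0.53 in Chd7f/f and 0.11 in controls, and the difference of the means was 0.014 (SE 0.27, 95% interval -0.63 to 0.66). Without Chd7f/f replicate 1 the difference was -0.25, and without Chd7f/f replicate 2 it was 0.27. The methyltransferase genes therefore moved apart most in Chd7f/f replicate 1: Ezh2 minus Ezh1, relative to its own mean over the arrays, was -1.03, 0.52 and 0.16 in Chd7f/f and 0.45, -0.30 and 0.20 in controls.

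Suz12, the scaffold that holds PRC2 together, was at 9.83, 10.10 and 9.93 in Chd7f/f and 10.46, 9.90 and 9.96 in controls. Control replicate 1 stood above the other 5 arrays, and the genotypes overlapped. The difference was -0.15 (SE 0.19, 95% interval -0.60 to 0.30), with 0.028 without control replicate 1 and -0.25 without control replicate 2. Eed, which reads the trimethyl mark and activates the enzyme, varied least of the 10 genes, with an SD over the 6 arrays of 0.13; 20.3% of tested genes had a smaller one. It was at 8.62, 8.86 and 8.71 in Chd7f/f and 8.55, 8.69 and 8.49 in controls, with the highest value in Chd7f/f replicate 2 and the lowest in control replicate 3. The genotypes overlapped, and the difference was 0.15 (SE 0.12, 95% interval -0.14 to 0.45), or 0.090 without Chd7f/f replicate 2.

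The promoters of Ezh2 and Suz12 are shown because these members had the highest rank correlation (Spearman's rho) with the proliferation score. Neither correlation passed after adjustment. That of Ezh1 is shown because it is the paralog of Ezh2. Each window is 300 bases long and spans the gene's start, most of it upstream, in RefSeq on GRCm38.p6: chr6:47594981-47595280 on the minus strand for Ezh2, chr11:79992856-79993155 on the plus strand for Suz12 and chr11:101226414-101226713 on the minus strand for Ezh1. Capitals mark the E2F motif, the letters that the cell cycle transcription factors of the E2F family are known to bind.
Ezh2: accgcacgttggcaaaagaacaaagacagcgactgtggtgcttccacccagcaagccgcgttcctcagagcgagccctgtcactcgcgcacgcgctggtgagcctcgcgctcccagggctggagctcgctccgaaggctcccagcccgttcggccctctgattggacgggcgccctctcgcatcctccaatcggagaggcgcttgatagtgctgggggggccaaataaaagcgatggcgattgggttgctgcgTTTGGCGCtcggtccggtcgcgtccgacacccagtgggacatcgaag
Suz12: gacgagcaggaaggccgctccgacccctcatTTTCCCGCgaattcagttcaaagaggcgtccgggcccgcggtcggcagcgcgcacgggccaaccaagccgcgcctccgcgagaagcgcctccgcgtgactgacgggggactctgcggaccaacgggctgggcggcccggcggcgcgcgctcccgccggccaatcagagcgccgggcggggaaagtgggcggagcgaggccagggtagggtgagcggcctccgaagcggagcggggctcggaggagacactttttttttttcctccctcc
Ezh1: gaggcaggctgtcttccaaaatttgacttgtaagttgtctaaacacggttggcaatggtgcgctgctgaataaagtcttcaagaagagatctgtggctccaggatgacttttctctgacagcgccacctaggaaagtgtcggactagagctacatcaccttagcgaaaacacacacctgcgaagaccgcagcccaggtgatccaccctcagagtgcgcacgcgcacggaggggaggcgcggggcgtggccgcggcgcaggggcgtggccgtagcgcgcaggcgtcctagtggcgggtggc

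The motif was searched in both directions as TTTCCCGC, TTTCGCGC, TTTGCCGC and TTTGGCGC. Windows of 9 of the 10 genes were found, and 2 of them held a match. In Ezh2 it is TTTGGCGC, beginning at base 4 of the gene, and in Suz12 it is TTTCCCGC, beginning at -219. The other 7 windows, of Ezh1, Eed, Bmi1, Ring1, Rnf2, Cbx7 and Asxl1, hold none of these letters, and Cbx2 has no window here. Of all 32851 promoter windows 2.26% hold the motif, and of 86 windows of the replication and mitosis genes 22.1%. These windows differ in base content: median GC was 52.7% over all windows, 59.0% for the replication and mitosis genes and 66.3% for the members. The shares were not matched for GC, and a part of the motif in the correlations with the score was not tested. The CCAAT box, spelled CCAAT and read on both strands, occurs 3 times in the Ezh2 window and once each in those of Suz12, Eed and Cbx7, without overlap with the E2F motif; 37.4% of all windows hold it. A match describes the letters and does not show that a factor binds there.

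**Figure D2:**
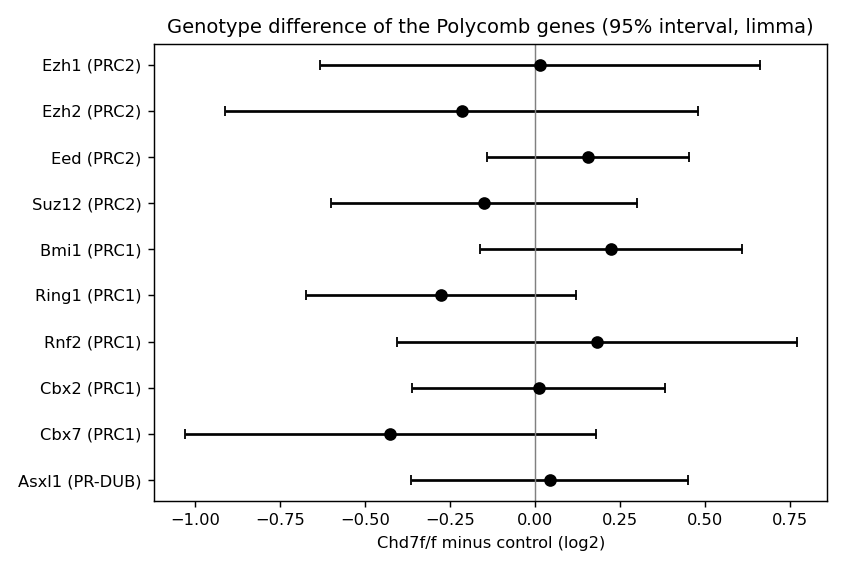
Chd7f/f minus control difference (log2) of each Polycomb gene with its 95% interval from limma, grouped by complex from PRC2 at the top to PR-DUB at the bottom. All 10 intervals include 0, from the narrowest for Eed (-0.14 to 0.45) to the widest for Ezh2 (-0.91 to 0.48).

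Among the PRC1 genes, the E3 ligase subunits Ring1 and Rnf2 had differences of opposite sign, neither past the test. Ring1 was at 6.84, 7.28 and 7.29 in Chd7f/f and 7.41, 7.30 and 7.54 in controls. It is the 1 gene of the 10 whose genotypes did not overlap, where 6.81% of all tested genes did not, 4.37% with Chd7f/f lower and 2.45% with Chd7f/f higher, but the gap between the highest Chd7f/f and the lowest control value was only 0.0030. With another quantile normalization or with median centring the genotypes overlapped. The difference of -0.28 (SE 0.16, 95% interval -0.67 to 0.12; limma, unadjusted p = 0.140) came mostly from Chd7f/f replicate 1 and was -0.13 without it.

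Rnf2, which encodes the ligase also called Ring1B, was at 10.25, 9.73 and 9.35 in Chd7f/f and 9.77, 9.56 and 9.46 in controls. Chd7f/f replicate 1 was again at an extreme, here the highest, and the difference of 0.18 (SE 0.24, 95% interval -0.41 to 0.77) was -0.055 without that array, 0.40 without Chd7f/f replicate 3 and 0.11 without control replicate 3. Rnf2 minus Ring1, relative to its own mean, was 0.997, 0.043 and -0.35 in Chd7f/f and -0.051, -0.14 and -0.49 in controls, so that the ligase genes diverged most on Chd7f/f replicate 1.

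Bmi1, the PCGF subunit needed for self-renewal of blood stem cells, was at 6.56, 6.83 and 6.67 in Chd7f/f and 6.51, 6.67 and 6.21 in controls. The low value was that of control replicate 3, and the difference of 0.22 (SE 0.16, 95% interval -0.16 to 0.61) was 0.097 without it. Cbx7, a chromodomain subunit that binds H3K27me3 and represses the Cdkn2a locus, was at 7.97, 7.22 and 7.56 in Chd7f/f and 8.32, 8.03 and 7.68 in controls. Its lowest 2 arrays were Chd7f/f replicates 2 and 3 and its highest 2 were controls, with an overlap through Chd7f/f replicate 1. The difference of -0.43 (SE 0.25, 95% interval -1.03 to 0.18) had an unadjusted p of 0.137 in limma. It was smaller without Chd7f/f replicate 2, at -0.24, and without control replicate 1, at -0.27. Without Chd7f/f replicate 1 it was -0.62 with an unadjusted p of 0.0415 and an adjusted p of 0.999, the 1 case in which a member fell under 0.05 before adjustment.

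Cbx2, another chromodomain subunit, was at 6.53, 6.32 and 6.33 in Chd7f/f and 6.64, 6.25 and 6.26 in controls. Both arrays numbered 1 were the high ones, and the difference was 0.010 (SE 0.15, 95% interval -0.36 to 0.38), of either sign with 1 array left out (-0.060 to 0.14). Asxl1, the PR-DUB cofactor that activates the deubiquitinase Bap1, followed the same pattern, at 8.91, 8.64 and 8.62 in Chd7f/f and 8.94, 8.64 and 8.46 in controls. Its difference was 0.042 (SE 0.17, 95% interval -0.37 to 0.45), likewise of either sign (-0.067 to 0.17). A further probe set annotated to Asxl1 together with a second gene was not used.

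Averaged by complex, PRC2 and PRC1 overlapped between the genotypes. The mean deviation of the 4 PRC2 core genes was -0.044, -0.054 and 0.023 in Chd7f/f and 0.25, -0.14 and -0.032 in controls, and that of the 5 PRC1 genes 0.087, -0.069 and -0.10 in Chd7f/f and 0.18, 0.017 and -0.11 in controls. Control replicate 1 was the highest array for both means. PRC2 minus PRC1 averaged 0.0040 ± 0.13 over the Chd7f/f arrays (SD, n = 3), against -0.0040 ± 0.14 over the control arrays (SD, n = 3), which makes the genotypes 0.0080 apart, or -0.071 to 0.076 with 1 array left out. Small means for a complex covered opposite movements of its members: on Chd7f/f replicate 1 Ezh1 was at 0.54 and Ezh2 at -0.48, and Rnf2 at 0.56 and Ring1 at -0.43.

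**Figure D3:**
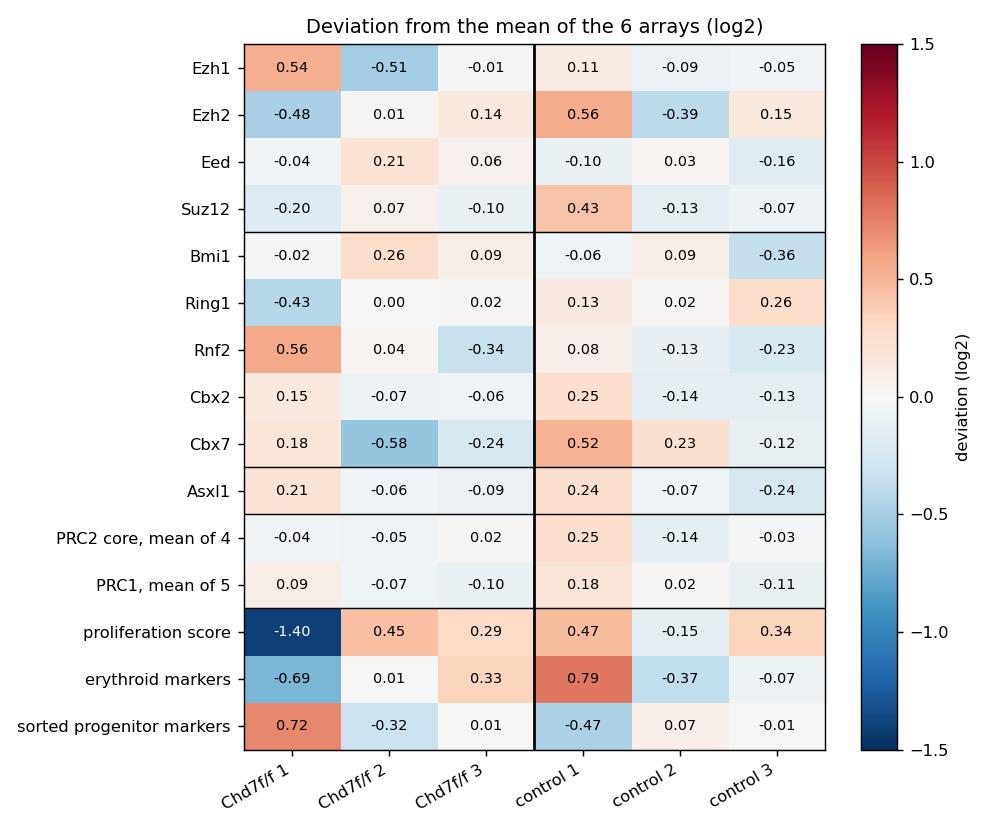
Deviation (log2) of each Polycomb gene from its own mean over the 6 arrays, with the means of PRC2 and PRC1, the proliferation score and the mean deviations of erythroid and sorted progenitor markers below; columns are arrays, Chd7f/f left of control. Chd7f/f replicate 1 combines the lowest proliferation score (-1.40) with high Ezh1 and Rnf2 and low Ezh2 and Ring1, and control replicate 1 has the highest Ezh2, Suz12, Cbx2, Cbx7 and Asxl1.

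Across the arrays Ezh2 and Suz12 followed the proliferation score most evenly. In order of rising score the arrays were Chd7f/f replicate 1, control replicate 2, Chd7f/f replicate 3, control replicate 3, Chd7f/f replicate 2 and control replicate 1. Suz12 had exactly this order (Spearman's rho = 1.0, exact permutation p = 0.00278, adjusted p = 0.204; Pearson's r = 0.58, exact p = 0.168, adjusted p = 0.563; n = 6). Its r was 0.62 without Chd7f/f replicate 1 and 0.83 without the 2 arrays farthest from the median score, which are Chd7f/f replicate 1 and control replicate 2. Ezh2 had r = 0.79 (exact permutation p = 0.0347, adjusted p = 0.334) and rho = 0.83 (exact p = 0.0583, adjusted p = 0.485; n = 6). Its r was 0.83 without Chd7f/f replicate 1 (exact p = 0.125 over the remaining arrays) and 0.41 without the 2 farthest arrays, so the relation rests on those arrays. As deviations from the genotype means, r was 0.77 for Ezh2 and 0.52 for Suz12 (exact permutation within genotypes, p = 0.0556 and 0.139).

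Of the 10 genes correlated with the score, Ezh2 was the 1 gene with an exact p of r under 0.05, beside 12.8% of the 15437 tested genes outside the score, 8.7% with r above and 4.09% with r below 0. By rho it was Suz12 alone, beside 7.61% of genes, and for deviations from the genotype means none of the 10, beside 5.99%. With adjustment over all these genes 0 passed, and the smallest adjusted p was 0.155. The share among the members, 1 of 10, is near that of all genes. Leaving out any 1 array other than control replicate 1 left 0 members under 0.05, and leaving out control replicate 1 left 2. The median r was -0.14 for the members and 0.083 for all genes.

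For Ring1, Ezh1 and Rnf2 the relation to the score rested on Chd7f/f replicate 1. Ring1 had r = 0.90 (exact p = 0.0639, adjusted p = 0.410; rho = 0.49, exact p = 0.356, adjusted p = 0.868), which was 0.29 without Chd7f/f replicate 1 and -0.10 without the 2 farthest arrays. Ezh1 had r = -0.77 (exact p = 0.131, adjusted p = 0.515; rho = -0.26, exact p = 0.658, adjusted p = 0.955), which was -0.13 without Chd7f/f replicate 1 and -0.28 without the 2 farthest arrays. Rnf2 had r = -0.77 (exact p = 0.117, adjusted p = 0.500; rho = -0.029, exact p = 1.0), and its sign turned to 0.34 without Chd7f/f replicate 1. For Eed, Bmi1, Cbx2, Cbx7 and Asxl1 r lay between -0.45 and 0.11 (exact p from 0.404 to 0.999).

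**Figure D4:**
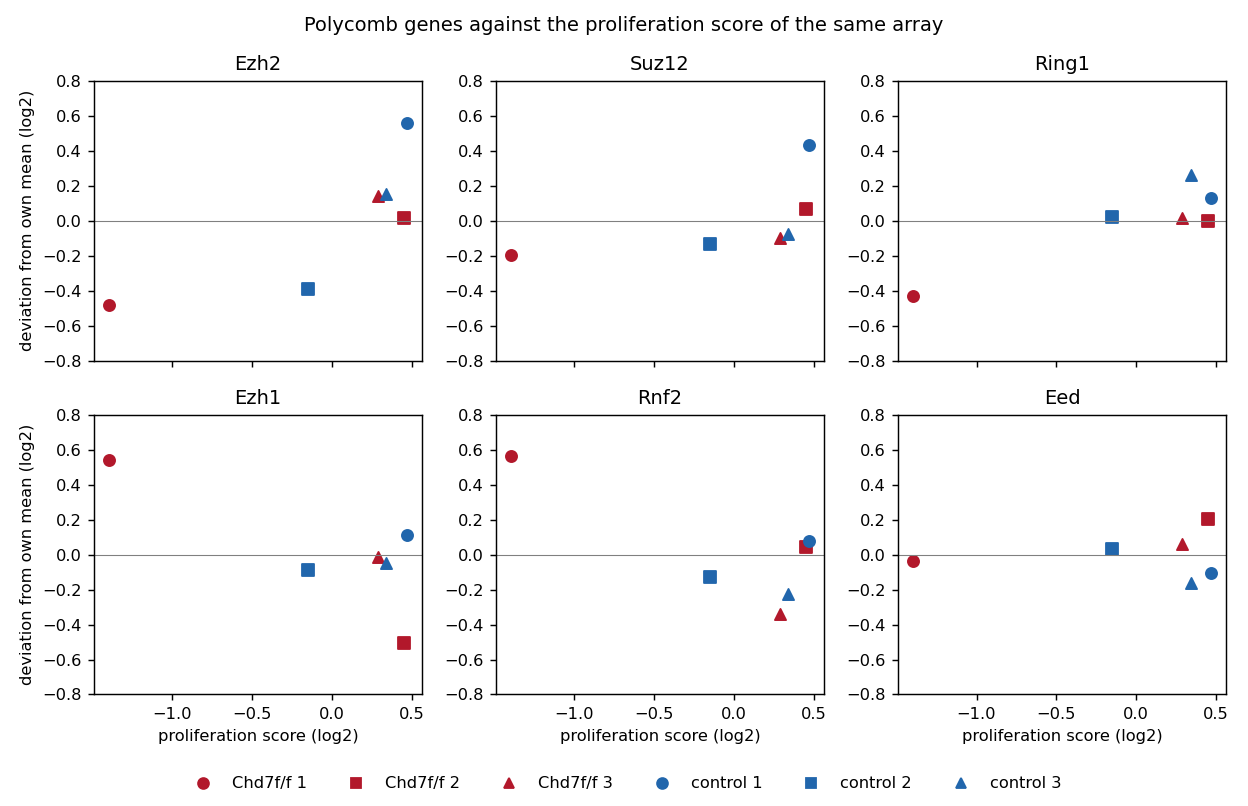
Deviation (log2) of 6 Polycomb genes from their own mean against the proliferation score (log2) of the same array; colour marks the genotype and the symbol the replicate number, with 6 arrays in each panel. Suz12 rises at every step of the score and Ezh2 over most of them, whereas the slopes of Ring1, Ezh1 and Rnf2 come from Chd7f/f replicate 1 at a score of -1.40.

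Marker lists of the sort and of another lineage moved with the score: over the 6 arrays the mean deviation of the sorted progenitor markers had r = -0.93 with it and that of the erythroid markers r = 0.78, given as descriptions. Their part in the correlations of Ezh2, Suz12 and the further Polycomb genes with the score was not tested. Erythroid markers also ran beside Ezh2. Their mean deviation, over the 6 of 10 markers measured, was -0.69, 0.0072 and 0.33 in Chd7f/f and 0.79, -0.37 and -0.070 in controls, and that of Ezh2 -0.48, 0.014 and 0.14 in Chd7f/f and 0.56, -0.39 and 0.15 in controls. The summed level of the erythroid markers ran from 56.3 to 62.4 in Chd7f/f and from 58.1 to 65.1 in controls, and Klf1, the erythroid transcription factor gene, was between 9.32 and 10.47 on all arrays. The summed level of the 6 progenitor markers, all measured, ran from 55.8 to 62.1 in Chd7f/f and from 54.9 to 58.2 in controls. In sorted bulk cells, more cells of a type and more RNA per cell cannot be told apart.

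Pairs of members were set against each other over the arrays. Of 45 pairs, 3 had an exact permutation p of r under 0.05, and none of the 3 passed after adjustment over all tested genes. Eed and Bmi1 ranked the 6 arrays in the same order (rho = 1.0, exact p = 0.00278; r = 0.93, exact p = 0.00694, n = 6), and r was 0.98 without the 2 arrays farthest from the median of Eed and 0.93 without Chd7f/f replicate 1. Exact p was under 0.05 for 3.82% of all tested genes against Eed, and the adjusted p over all of them was 0.998. Cbx2 and Asxl1 had r = 0.94 (exact p = 0.0139, adjusted p = 0.530; rho = 0.71, exact p = 0.136; n = 6), with r = 0.46 without the 2 arrays farthest from the median of Cbx2, so that this relation rests on them. Ezh2 and Suz12 had r = 0.83 (exact p = 0.0250, adjusted p = 0.409; rho = 0.83, exact p = 0.0583; n = 6), with r = 0.33 without the 2 arrays farthest from the median of Ezh2. The shares of all tested genes under 0.05 were 9.0% against Cbx2 and 10.5% against Ezh2. The paralogs Ezh1 and Ezh2 had r = -0.28 (exact p = 0.667, adjusted p = 0.890; rho = 0.029, exact p = 1.0), and r was 0.42 without Chd7f/f replicate 1.

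The genes outside the Polycomb lists most like a member were found by Pearson's r over the 6 arrays, as a description. For Ezh2 they were Top3b, Phka2 and Piga, with r from 0.990 to 0.992. For Ezh1 they were Zkscan14, Zfp408 and Ereg, with r from 0.983 to 0.993, and for Cbx7 they were Cd163l1, Mip and Ccr9, with r from 0.984 to 0.987. Ezh2 and Phka2, the gene of a phosphorylase kinase subunit, both peaked in control replicate 1 and were lowest in Chd7f/f replicate 1. Phka2 was at 7.62, 8.33 and 8.41 in Chd7f/f and 8.84, 7.75 and 8.32 in controls.

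The wider Polycomb machinery gave a like picture. Of 48 further genes of PRC2, PRC1, PR-DUB and H3K27 demethylation 43 were measured and 41 tested, of which 19 lay above and 22 below the controls in Chd7f/f, at a median difference of -0.016. None passed the adjusted threshold, and 1 of the 41 had an unadjusted p under 0.05, beside 1.84% of all tested genes. That gene was Phf19, which encodes a Tudor domain protein that brings PRC2 to chromatin, at 5.01, 5.997 and 6.16 in Chd7f/f and 6.66, 6.37 and 6.66 in controls. All 3 Chd7f/f values lay below the controls, as in 4.37% of tested genes, with a difference of -0.84 (SE 0.31; limma, unadjusted p = 0.0352, adjusted p = 0.9998). Leaving out Chd7f/f replicate 1 gave -0.49, and dropping the pair of arrays numbered 1 gave -0.44.

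Among the other 8 PRC2 accessory genes, Rbbp4, a histone-binding subunit, differed by -0.17, which was 0.0079 without Chd7f/f replicate 1. Epop, an elongin partner of PRC2, differed by 0.11, or 0.065 without control replicate 1; its 3 Chd7f/f values lay above the controls, as in 2.45% of tested genes. Phf19 and Epop were the only genes of the 41 without overlap. Among 22 tested PRC1 genes 10 were higher and 12 lower. Auts2, which joins a variant PRC1 complex, was at 7.57, 6.65 and 6.01 in Chd7f/f and 4.83, 6.99 and 5.38 in controls, a difference of 1.01 (SE 0.64), which depended on the arrays used: it was 1.64 without control replicate 2, 0.56 without control replicate 1, 0.60 when Chd7f/f replicate 1 was left out and 0.14 when the pair numbered 1 was. The corepressor gene Bcorl1 differed by 0.37, or 0.23 without Chd7f/f replicate 2 and 0.18 without control replicate 1, and L3mbtl2 by -0.23, or -0.12 without Chd7f/f replicate 1. Of 8 tested PR-DUB genes 4 were higher and 4 lower: Asxl2, the paralog of Asxl1, differed by 0.22, Hcfc1 by -0.087 and Mbd6 by -0.10. Without Chd7f/f replicate 1 Asxl2 was at a difference of 0.12 and Hcfc1 turned to 0.028, and Mbd6 ran from -0.21 without control replicate 1 to -0.043 without control replicate 3. Of the demethylases that remove H3K27 methylation, Kdm6a differed by -0.15, and by -0.36 without control replicate 3. Its difference turned to 0.040 without control replicate 2, the array with high Xist and low Eif2s3y. Kdm6b differed by 0.34, or 0.15 without control replicate 1, 0.21 without Chd7f/f replicate 1, 0.019 without the pair numbered 1 and 0.19 as the mean of its probe sets. In limma each of these genes had an adjusted p of 0.9998.

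The wider list was also set against the proliferation score. Of its 41 tested genes 12, or 29.3%, had an exact p of r under 0.05, 7 with r above and 5 with r below 0, beside 12.8% of all tested genes. All 12 kept their sign without Chd7f/f replicate 1, where 8 genes were under 0.05, 6 of them among the 12, beside 6.63% of all genes. The 12 were picked by the p of r on these same arrays, and the share of all genes that keep their sign is not given. Without the 2 farthest arrays the r of Lcor turned from -0.90 to 0.57, while the rest of the 12 kept their sign. Among these, r fell to 0.42 for Rbbp4 and was -0.30 for Pcgf5. Rbbp7, the histone-binding paralog of Rbbp4, was at 10.08, 10.94 and 10.70 in Chd7f/f and 11.01, 10.55 and 10.74 in controls. It ranked the arrays as the score did (rho = 1.0, exact p = 0.00278; r = 0.96, exact p = 0.00139, adjusted p = 0.155; n = 6), and r was 0.89 without Chd7f/f replicate 1 and 0.99 without the 2 farthest arrays. Hcfc1, a subunit of Bap1 complexes that also binds E2F factors, had r = 0.95 (rho = 1.0, exact p = 0.00278) and 0.94 without Chd7f/f replicate 1. On the negative side Phf1, a paralog of Phf19, had r = -0.97 (exact p = 0.0139, adjusted p = 0.255; rho = -0.71, exact p = 0.136; n = 6), and -0.46 without the 2 farthest arrays. Rbbp7, Phf1, Lcor and Pcgf5 were named after their values were seen.

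Genes that Polycomb is known to silence did not pass the test either. Of 28 such genes, among them the Cdkn2a locus, Hox genes and regulators of other tissues, 27 were measured and 22 tested, with 7 above and 15 below the controls in Chd7f/f, where 43.7% of all tested genes were above, and a median difference of -0.11. None had an unadjusted p under 0.05. Sox17, Neurog1 and Zic1, 3 of the 22, had all 3 Chd7f/f values below the controls, as had 4.37% of all tested genes, with differences of -0.21, -0.33 (-0.21 without Chd7f/f replicate 1) and -0.16, at levels between 4.24 and 4.93, near the filter of 4.13.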

How the data were processed

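Total RNA of 6 samples, 3 per genotype by their titles, was hybridised to Affymetrix arrays. The authors deposited 1 log2 value per probe set and array; the submitters' processing notes name RMA and Affymetrix Expression Console, without version or settings. As RMA removes background, gives all arrays 1 distribution and summarises probes, differences in total signal are no longer visible. There are 41345 probe sets, 0 values are missing, and array medians ran from 4.72 to 4.84.

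Gene names came from the platform annotation and were brought up to date through Entrez identifiers in RefSeq (GRCm38.p6), where 21994 of the 22180 named genes were found; 23521 probe sets had 1 symbol, 1814 several and 16010 none listed. The highest-mean probe set was kept per gene, and genes whose mean reached 4.13, percentile 30 of named genes, were tested. The genotype difference was fitted without covariates by limma 3.58.1 (R 4.3.3), with its default empirical Bayes prior, 95% intervals and Benjamini-Hochberg adjustment over all tested genes. Correlations were tested by exact two-sided permutation of the array order, 720 orders, or 36 within genotypes, in Python 3.11.15; the smallest p these can give are 0.00139 and 0.0278. The score holds 41 replication and 48 mitosis genes. Of the further lists, the 3 genes with the smallest p and any under 0.05 were named; for Ezh2 and the 3 most variable members, Ezh2 among them, the 3 most similar genes were named.

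The members, lists and tests were chosen with earlier results of these data known. On simulated data for the genotype comparison (15526 genes), 34.3% of changes of log2 1 and 82.1% of those of log2 2 were called. In a simulation of the correlation step, 99.5% of linked genes and 5.07% of unlinked ones had p under 0.05. The share of linked genes depends on how strong the simulated link was made, and neither share need hold for these arrays. Alternatives were other normalizations, filters, priors and probe set summaries, a block for replicate number, array weights, and leaving out arrays. No batch is given in the labels.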

Additional observations from a re-analysis of the deposited data

How the results depend on the processing

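No member and no other Polycomb gene passed the adjusted threshold in limma under any alternative run, nor at an adjusted p under 0.1. Of 160 member differences 144 kept their direction and 16 reversed. Many of the 144 could not change: each member has 1 probe set, and the filters, the prior and the replicate block leave a difference as it is. All 16 reversals came with array weights or with arrays left out. With array weights the difference was -0.044 for Ezh1, -0.0074 for Rnf2 and 0.027 for Rbbp4. Without both arrays numbered 1 it was -0.19 for Ezh1, 0.20 for Ezh2, 0.090 for Suz12, 0.14 for Rbbp4 and 0.090 for Hcfc1. Leaving out 1 array at a time gave -0.25 to 0.27 for Ezh1, -0.46 to 0.011 for Ezh2, -0.25 to 0.028 for Suz12, -0.055 to 0.40 for Rnf2, -0.62 to -0.24 for Cbx7, -0.060 to 0.14 for Cbx2, -0.067 to 0.17 for Asxl1, -0.28 to 0.0079 for Rbbp4, -0.17 to 0.028 for Hcfc1 and -0.36 to 0.040 for Kdm6a. The number of members whose genotypes did not overlap, 1, was 0 with another quantile normalization and with median centring, 5 without both arrays numbered 1 and 1 to 4 with 1 array left out; fewer arrays overlap less often by construction, with 13.8% to 18.4% of all genes not overlapping with 1 array left out and 28.5% without both numbered 1. The number with an unadjusted p under 0.05 was 0 to 1 with 1 array left out.

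The number of members correlated with the proliferation score, 1, was 2 with replication genes alone, 0 with mitosis genes alone, 0 for deviations from the genotype mean, 0 with another quantile normalization, 2 with median centring and 0 to 2 with 1 array left out. Of 140 member correlations 20 reversed. By rho they were -0.086 for Eed and for Bmi1, 0.26 for Cbx2 and 0.20 for Asxl1. With another quantile normalization they were -0.12 for Eed and -0.025 for Bmi1, and with replication genes alone -0.016 for Bmi1. Without the 2 farthest arrays they were -0.10 for Ring1, 0.9996 for Rnf2, 0.62 for Cbx2, 0.29 for Cbx7 and 0.68 for Asxl1. With 1 array left out r was -0.21 to 0.32 for Eed, -0.24 to 0.38 for Bmi1, -0.86 to 0.34 for Rnf2, -0.85 to 0.53 for Cbx2 and -0.89 to 0.28 for Asxl1. The cause of these reversals was not tested.

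The values show no pairing of the arrays by replicate number. Same-numbered deviations correlated at 0.027, -0.025 and 0.034, and differently numbered ones at -0.099 to 0.089. With so few arrays this check cannot exclude a shared preparation. With the replicate number as a block in limma, 0 genes passed after adjustment and 332 had an unadjusted p under 0.05, against 286 without it. The difference of Ezh2 stayed at -0.22, as it must when each block holds both genotypes equally. With 3 arrays per genotype, limma recovered 34.3% of simulated log2 changes of 1. That share need not hold for these arrays, and changes of log2 1 or smaller in these genes could go undetected.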

Other observations

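Hoxa9, a homeobox gene of myeloid progenitors that PRC2 and Asxl1 are known to restrain, was at 6.91, 4.56 and 5.04 in Chd7f/f and 5.05, 5.50 and 5.53 in control samples. Chd7f/f replicate 1, the array with the highest Ezh1 and the lowest Ezh2, held the highest value, and the difference between genotypes was 0.14 (SE 0.60; limma, adjusted p = 0.9998). That difference rests on this array: without it the difference was -0.56, and it was -0.017 without control replicate 1. Cd34 was likewise at 9.47 there and between 5.61 and 7.64 on the other 5 arrays. Cdkn2a, the cell cycle inhibitor locus that Bmi1 and Cbx7 repress, was at 6.65, 6.98 and 6.88 in Chd7f/f and 7.20, 7.35 and 6.72 in control samples, lowest on the same array. Chd7f/f replicate 1 also had the lowest proliferation score, and Hoxa9 had r = -0.94 with the score over the arrays. The exact permutation p of Hoxa9 was 0.0222, unadjusted, where 12.8% of tested genes were under 0.05, 4.09% with r below 0. An r of Hoxa9 without Chd7f/f replicate 1 is not given, so how far it rests on that array is not shown. Control replicate 2, with Ezh2 nearly as low at 9.36, had Hoxa9 at 5.50. What links these levels was not tested. Hoxa9, Cd34 and Cdkn2a were picked after their values were seen.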
